A study of Mus musculus with 26 samples.

Results

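The nuclear-encoded genes of oxidative phosphorylation, the pathway by which mitochondria turn electrons from NADH and succinate into ATP, were followed through 26 single amacrine cells of the mouse retina. Genes were taken by symbol: all genes on the array named Ndufa, Ndufb, Ndufc, Ndufs or Ndufv (complex I), Sdha to Sdhd (complex II), Uqcr and Cyc1 (complex III), Cycs (cytochrome c), Cox4 to Cox8 (complex IV) and Atp5 (complex V, ATP synthase). This gave 92 of the 18193 named genes. They comprised 34 subunits of complex I, 8 Ndufaf genes that the symbol rule also takes in and that encode assembly factors of complex I, 4 genes of complex II, 9 of complex III, Cycs, 17 of complex IV, the pair Ndufa4 and Ndufa4l2, and 17 of complex V. The symbol rule itself used no measured value, but the genes were chosen with earlier results of these data known. The probe set read for each gene was picked by its mean signal.

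Amacrine cells, mostly inhibitory interneurons, shape signals in the inner retina, and the study picked them one at a time to tell their many types apart. Green fluorescent protein driven by the promoter of Ndrg4 (pNdrg4) or Synapsin (pSynapsin) had been electroporated into the developing retina, and each fluorescent cell filled 1 Affymetrix Mouse 430 2.0 array after its cDNA had been amplified by PCR. The P5 cells were 10 with pNdrg4 whose labels state no culture, and 5 with pNdrg4 and 4 with pSynapsin from retinas held 5 days in culture. The P8 cells, 2 of each reporter, came from retinas held 8 days in culture. Finally, 2 pNdrg4 cells were labelled P4 and 1 pSynapsin cell was labelled E19, all from retinas cultured for 4 days. The reporters are known from the series' text to label differently shaped sets of amacrine cells, so a reporter difference cannot be told apart from a difference of cell type. No strain, animal or retina is named, and cells of a group may share one. Each group therefore counts as 1 sample, no p-value was computed, and any SD describes the spread among cells. Precision is limited by the number of arrays.

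In the respiratory chain, complexes I and II pass electrons to ubiquinone, complex III passes them on to cytochrome c, and complex IV hands them to oxygen. Complexes I, III and IV pump protons out of the mitochondrial matrix, and ATP synthase lets them flow back to drive ATP synthesis. Each complex other than complex II combines subunits from the nuclear genome, measured here, with subunits from mitochondrial DNA, which the symbol rule does not take in. The retina is known for its heavy use of both respiration and aerobic glycolysis.

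The signals are linear and were scaled by the authors so that the trimmed mean of each array is 500. Detection in a cell means a signal of 1000 or more. Levels of different genes are read by different probe sets, so levels are compared here only within a gene. Differences are between group means of log2(max(signal, 200)), and they understate a gap where a group lies at the floor of 200. Between 1909 and 4180 genes were detected per cell. Of 7 amacrine markers, 2 to 6 were detected in each cell, and the blood and vessel markers were undetected in all but 1 cell, a P4 cell with 1 of 5. Markers of other cell types varied between cells. Of 10 Müller glia markers, 1 to 6 were detected in cells with no culture stated and 0 to 4 in cultured P5 pNdrg4 cells. Of 7 progenitor and cell cycle markers, 0 to 6 and 0 to 2 were detected in these groups. Rod photoreceptor markers varied as well. Of 11 measured, 0 to 5 were detected in cells with no culture stated, 0 or 1 in cultured P5 pNdrg4 cells, 1 to 7 in P5 pSynapsin cells, and 6, 8, 8 and 3 in the P8 cells.

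Most genes of the pathway were broadly detected. Of the 92, 70 (76.1%) were detected in at least 13 of the 26 cells, against 11.9% of all genes, and without the assembly factors the share was 83.3%. In all 26 cells 8 were detected, against 0.682% of all genes: Atp5j, Atp5o, Cox4i1, Cox6a1, Cox6b1, Cox6c, Cox7a2 and Ndufa4. In none of the cells 7 were detected, against 44.1% of all genes: Ndufb1, Ndufb4, Sdhd, Cox6a2, Cox7b2, Cox8b and Ndufaf6. For 0 of 26 cells the upper bound of the Clopper-Pearson 95% interval is 13.2%. It covers counting error only, over cells pooled from groups that differ in age, reporter and culture, and not the case of a probe set that fails to read its transcript.

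**Figure D1:**
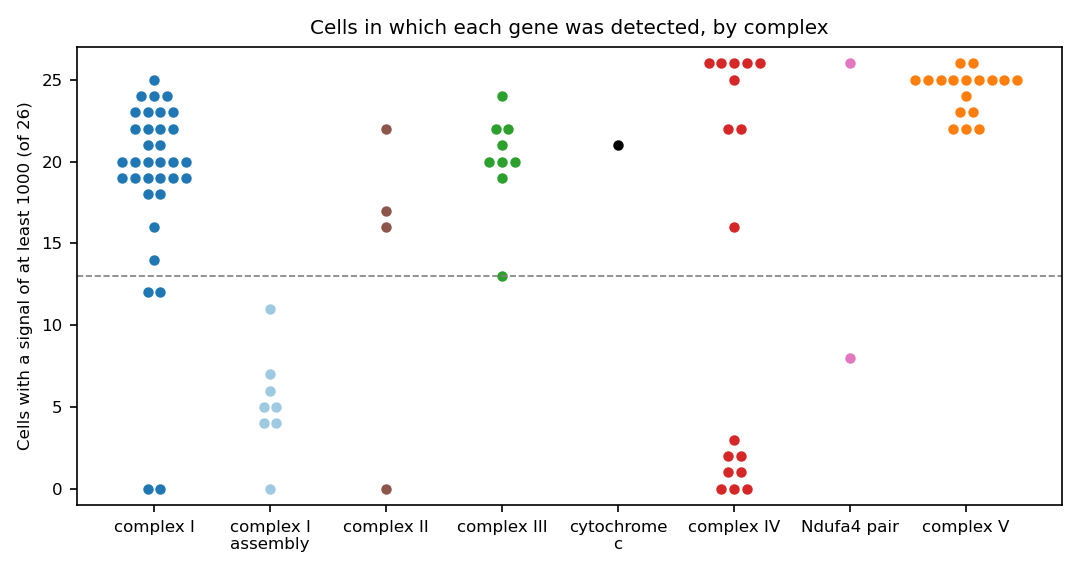
Number of the 26 cells in which each gene reached a signal of 1000 (vertical axis), with 1 point per gene and the genes grouped by complex along the horizontal axis; the dashed line marks 13 cells. All 17 genes of complex V lie at 22 cells or more, complex IV splits into a set at 16 to 26 cells and a set at 0 to 3, and the assembly factors lie at 0 to 11.

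ATP synthase was the most evenly detected complex, with all 17 genes in 22 to 26 cells. Atp5o, which encodes the subunit that ties the catalytic head to the outer stalk, had a lowest signal of 4303, a median of 32563 and a highest of 83636. Atp5h, a subunit of that stalk, ranged from 634 to 68148 around a median of 24685. Atp5b, the catalytic beta subunit, had a median of 18740 and was detected in 25 cells, but in cell B1 with no culture stated its only probe set read 12.7. The 3 genes Atp5g1, Atp5g2 and Atp5g3 encode the same mature c subunit of the proton-driven ring, and they were detected in 22, 23 and 25 cells. No one of the 3 was thus the only gene in use, and detection of each varied from cell to cell. Atp5k and Atp5e, the least often detected with Atp5g1, were each found in 22 cells.

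Complex I, the entry point for NADH, was detected more unevenly. Of its 34 subunits, 30 were detected in at least 13 cells, with a median of 20 cells and none in all 26. Ndufc1 led with 25 cells and a median signal of 15905, and Ndufa13, Ndufc2 and Ndufv3 followed with 24. Several of the core subunits conserved from bacteria were found in fewer cells, 22 for Ndufv2, 19 each for Ndufv1, Ndufs3 and Ndufs7, 16 for Ndufs1 and 12 for Ndufs8. Ndufb1 and Ndufb4 were detected in none, with highest signals of 738 and 93.7. Each of these has 1 named probe set, so a probe set that reads poorly and a transcript that is absent cannot be told apart.

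The assembly factors Ndufaf1 to Ndufaf8, which help to build complex I and are not part of it, were detected in few cells. Ndufaf4 was found in 11, Ndufaf3 in 7, Ndufaf1 in 6, Ndufaf5 and Ndufaf7 in 5, Ndufaf2 and Ndufaf8 in 4 and Ndufaf6 in 0. Where present their signals reached 4415 (Ndufaf8) to 22353 (Ndufaf3). Of 39 further measured factors that assemble the respiratory chain, 6 were detected in at least 13 cells.

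Complex II, succinate dehydrogenase, also belongs to the citric acid cycle. Its membrane anchor Sdhc was detected in 22 cells, the flavoprotein Sdha in 17 and the iron-sulphur protein Sdhb in 16. The other anchor, Sdhd, was detected in none, with a highest signal of 352, and its other probe set was detected in none either.

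Each of the 9 genes of complex III was detected in 13 to 24 cells. Single cells had from 3 of them (the E19 cell) to all 9. The small subunit Uqcrb (median signal 28485) was found in 24 cells and the hinge protein Uqcrh (median signal 19466) in 22. Uqcrfs1, the Rieske iron-sulphur protein, was found in 13 cells and Uqcrc2, a core protein, in 19. Cycs, the carrier between complexes III and IV, was detected in 21 cells. Its signals were either high or near 0: the lowest was 2.21, the median 15094 and the highest 43286.

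Complex IV was split between common and restricted isoforms. The common forms Cox4i1, Cox6a1, Cox6b1, Cox6c and Cox7a2 were detected in all 26 cells, Cox5b in 25, Cox8a and Cox7a2l in 22 and Cox5a in 16. Their restricted relatives were nearly silent. Cox6a2 and Cox8b, known from heart and skeletal muscle, and Cox7b2 were detected in 0 cells. Cox7a1, another muscle form, was detected only in the E19 cell, at 6326 against a next highest signal of 363. Cox6b2, known from testis, was detected only in cell A2 with no culture stated, at 6333 against 320. Cox8c was detected in 2 cells, A2 and B3 with no culture stated, at 2357 and 1292. Cox7c, which has no paired isoform among these genes, was detected in only 3 cells, with a median signal of 6.77 and a highest of 8127 in cell B1 with no culture stated. The other probe set of Cox7c was detected in 1 cell, and a poor probe set and an absent transcript cannot be told apart.

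**Figure D2:**
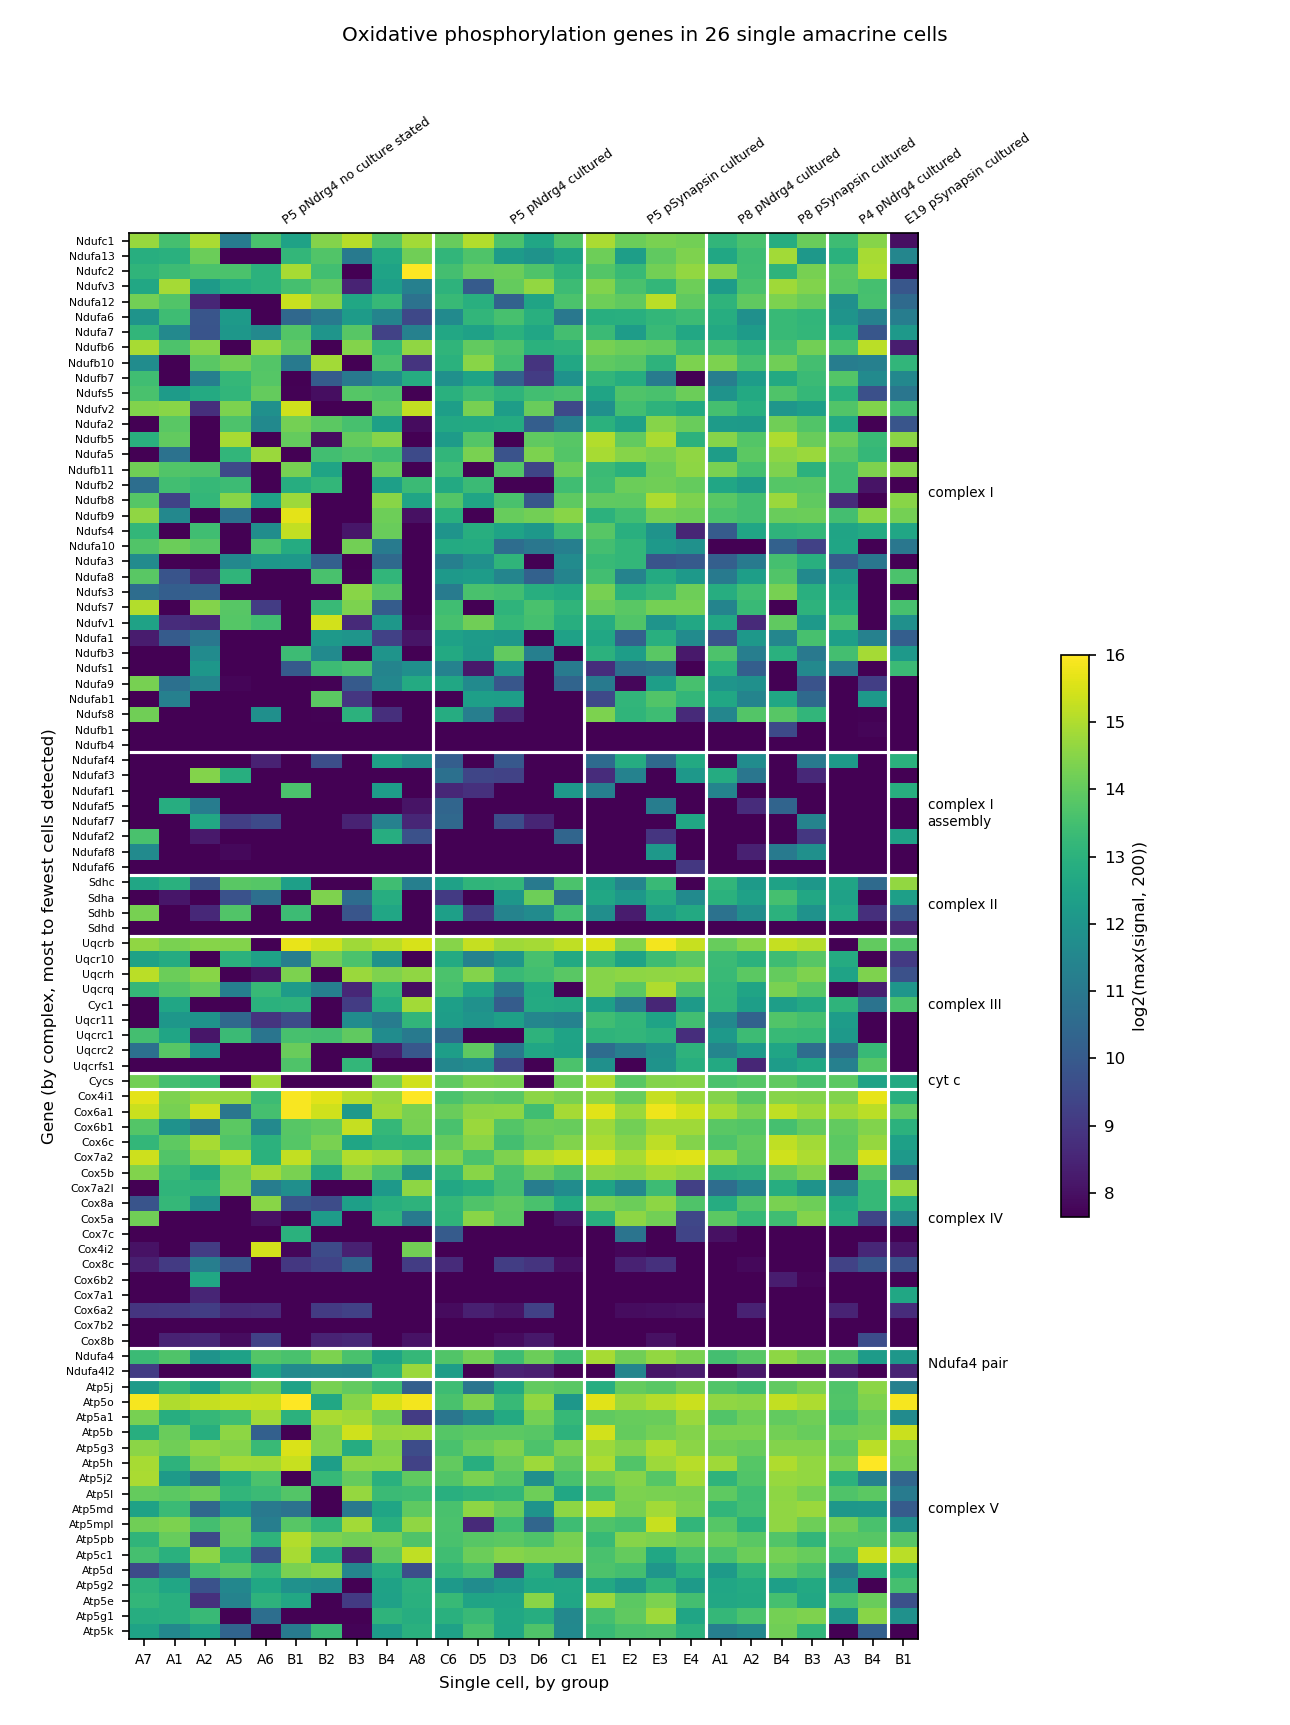
Heat map of the 92 genes (rows, by complex and then by number of cells detected) in the 26 cells (columns, by group), coloured by log2(max(signal, 200)), so the darkest colour is a signal of 200 or less. Rows of complex V and the upper rows of complex IV are bright in nearly every cell, the assembly factors and restricted complex IV isoforms are dark in most, and complex I has its dark cells mainly among the 10 with no culture stated.

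Even the best detected genes had gaps in some cells. Of the 92, 24 were detected in at least 24 cells, against 1.68% of all genes. These 24 genes in 26 cells gave 21 misses, spread over 10 cells. Cells A6, A8 and B3 with no culture stated and the E19 cell missed 3 each, cells B1 and B2 with no culture stated and P4 cell A3 missed 2, and cells A2, A5 and D5 missed 1. A gene detected in at least 24 cells can be missed in few, so a spread of misses over several genes was fixed by this choice. Cell A8 lacked Atp5a1 (565), Atp5g3 (769) and Atp5h (634), and cell B2 lacked Atp5l (62.5) and Atp5md (89.4). The E19 cell lacked Ndufc1 (256), Ndufc2 (65.6) and Ndufv3 (949). P4 cell A3 had Cox5b at 42.6 and Uqcrb at 7.54 while its complex V genes had a median of 13.56 on the log2 scale. The 8 cells of P5 pSynapsin and of both P8 groups missed none of the 24.

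The promoters of these genes were searched for letters bound by factors known to act on nuclear genes of the respiratory chain. RefSeq promoters (build GRCm38.p6) were at hand for 75 of the 92 genes, and the 250 bases before each start were read on both strands. The NRF1 motif (GCGCA, any base, then GCGC) occurred in 12 of the 75 (16%), against 7.0% of the 14452 genes of the array with a promoter and 4.23% of all 27025 genes. The ETS core CCGGAAGT, bound by GABPA among others, occurred in 3 (4%, against 4.95% and 3.23%), the YY1 core AAGATGGC in 1 (1.33%, against 2.05% and 1.83%), and the TATA letters TATAAA in 7 (9.33%, against 10.5% and 14.3%). The NRF1 letters did not sort the genes by detection: 9 of the 12 genes with a match were detected in at least 13 cells and 2 in none, and both sets, with and without, had a median of 21 cells. The stretches that hold these letters are given for Cox6a1, detected in all 26 cells, Sdha, in 17, Sdhd, in 0, and Ndufaf4, which differed between reporters at P5, followed by the ETS matches of the complex III genes Uqcrh and Uqcr11, which differed between reporters at both ages. Capitals mark the matched letters, and each line runs 5′ to 3′ along the gene's strand.
Cox6a1 (chr5:115349041-115349145, minus strand): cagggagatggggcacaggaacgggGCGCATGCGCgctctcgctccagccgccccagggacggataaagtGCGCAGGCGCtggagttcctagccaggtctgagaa
Sdha (chr13:74350241-74350363, minus strand): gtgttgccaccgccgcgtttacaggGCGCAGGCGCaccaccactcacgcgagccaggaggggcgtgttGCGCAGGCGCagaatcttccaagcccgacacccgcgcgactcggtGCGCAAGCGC
Sdhd (chr9:50603894-50603953, minus strand): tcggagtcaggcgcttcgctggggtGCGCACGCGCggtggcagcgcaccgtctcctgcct
Ndufaf4 (chr4:24897945-24898004, plus strand): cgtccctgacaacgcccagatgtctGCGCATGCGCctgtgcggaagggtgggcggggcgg
Uqcrh (chr4:116075071-116075106, minus strand): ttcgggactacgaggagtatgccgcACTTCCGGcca
Uqcr11 (chr10:80406855-80406912, minus strand): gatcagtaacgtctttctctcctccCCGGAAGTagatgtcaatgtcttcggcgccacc
Sdha holds 3 matches and Cox6a1 holds 2. The remaining ETS match lies in Atp5h and is not shown. A match is a run of letters and not a shown binding site, and no link between a motif and the reporter was tested. Of the factors' own transcripts, Nrf1 was detected in 3 of the 26 cells, Gabpa in 2 and Yy1 in 14.

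Cells differed widely in how much of the pathway they showed. Between 46 and 76 of the 92 genes were detected per cell, and this number followed the count of all genes detected (Pearson r = 0.93, Spearman rho = 0.91, n = 26 cells). Both counts are read from the same array, so the correlation is a description. The median over the 92 genes of log2(max(signal, 200)) summarises a cell. It lay between 10.04 and 12.87 in the 10 cells with no culture stated (median 11.22). The cultured P5 pNdrg4 cells had 12.69, 12.55, 12.52, 12.03 and 12.60, and the P5 pSynapsin cells had 13.30, 13.17, 13.34 and 13.10. At P8 the pNdrg4 cells had 12.72 and 12.73 and the pSynapsin cells 13.53 and 13.16. Of the remaining 3, the P4 pair had 12.51 and 11.30, and the E19 cell had 11.23. The pSynapsin cells thus stood above the cultured pNdrg4 cells of the same age without overlap, at P5 and at P8.

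**Figure D3:**
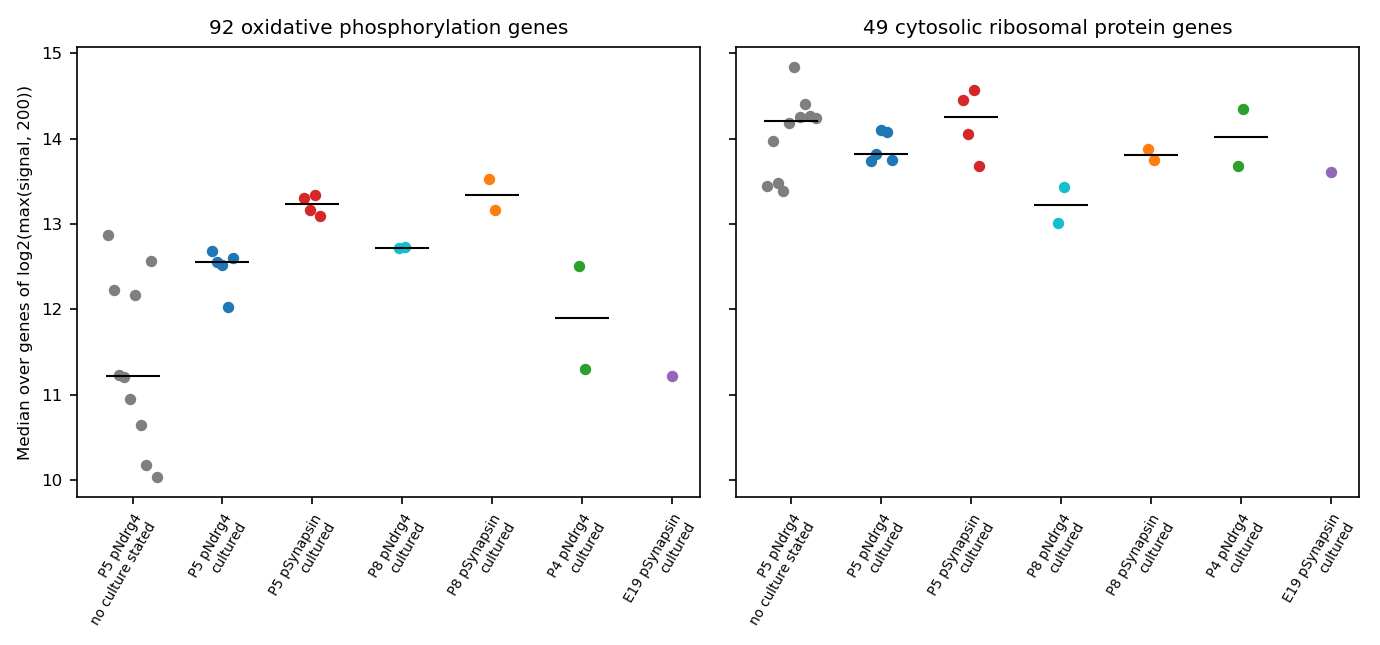
Median over genes of log2(max(signal, 200)) in each cell (vertical axis, 1 point per cell) by group, for the 92 oxidative phosphorylation genes (left) and 49 cytosolic ribosomal protein genes (right); black lines are group medians, and the panels use different probe sets, so their heights are not compared. On the left, pSynapsin cells lie above cultured pNdrg4 cells at P5 and P8, and the cells with no culture stated spread from 10.04 to 12.87; on the right, the P5 groups overlap.

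The cytosolic ribosomal protein genes, another set of widely expressed transcripts, did not follow the same order. Their median per cell was 13.39 to 14.83 with no culture stated, 13.74 to 14.10 in cultured P5 pNdrg4 cells and 13.68 to 14.57 in P5 pSynapsin cells, so these groups overlapped. At P8 they were 13.01 and 13.43 with pNdrg4 and 13.88 and 13.75 with pSynapsin, without overlap. Over the 26 cells the medians of the 2 sets had a Pearson r of -0.17 and a Spearman rho of -0.13, and over the 13 cultured cells of P5 and P8 they had 0.28 and 0.17. Between the complexes r was 0.50 for I and III, 0.49 for I and V and 0.59 for III and V over the 26 cells, and 0.48, 0.60 and 0.75 over the 13.

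The first comparison, of 5 cultured pNdrg4 cells at P5 with the 10 of no stated culture, asked how levels in culture differ from those in cells without a stated culture. Most genes of the pathway were higher in the cultured cells, by a median of 0.47 on the log2 scale (62 higher, 25 lower, 5 equal). By at least 1 log2 unit 29 were higher (31.5%) and 5 lower. The background was 12.8% of all genes higher and 4.27% lower, and 34.4% and 11.4% of those seen in 13 or more cells. Of the 70 members seen in 13 or more cells 41.4% were higher and 4.29% lower, with a median of 0.74, and the median of all genes seen that often was 0.52. The ribosomal protein genes had a median of -0.15. When groups were summarised by medians, the median over the genes was 0.06. No gene of the pathway separated the 2 groups without overlap (0.0989% of all genes were higher and 0.0605% lower without overlap, and 0.185% and 0.509% of those seen in 13 or more cells).

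The 3 genes higher by the most in culture encode core subunits of complexes I and III, though the core genes Uqcrc1 and Ndufs1 were lower. Ndufs3, a core subunit of complex I, was detected in 5 of 10 cells with no culture stated (25.05, 647 and 23603 as lowest, median and highest signal) and in all 5 cultured cells (2213, 7592 and 12424). The difference of mean log2 values was 3.003, 8.02-fold. Ndufv1, which binds NADH, ran from 150.8 to 44123 with no culture stated (median 2341) and from 7516 to 18769 in culture (median 11838), a difference of 2.63. Uqcrc2, a core protein of complex III, differed by 2.53 and was detected in 4 of 10 and in 5 of 5 cells. For these 3 genes the highest cells with no culture stated exceeded every cultured cell, and what differed was the number of cells near 0. The next widest were Atp5md (2.24), Ndufb9 (2.15), Ndufb3 (2.11), Atp5g1 (2.03), Ndufa1 (1.99), Uqcrfs1 (1.98) and Cox8a (1.96). Cox8a, the common form of a small complex IV subunit, was at 40.5 to 23313 with no culture stated and at 6969 to 15514 in culture.

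Other genes had lower levels in culture. Uqcrc1, the partner of Uqcrc2 in the core of complex III, was detected in 9 of 10 cells with no culture stated (282, 8219 and 15871) and in 3 of 5 cultured cells (23.98, 1407 and 8516), and was lower in culture by 1.96 log2 units, 3.904-fold. Atp5o ran from 6235 to 83636 with no culture stated (median 41632) and from 4303 to 25377 in culture (median 12451), a difference of -1.57. Atp5mpl, a small subunit of the ATP synthase membrane part, differed by -1.76. Cox4i1 was lower by 0.93 log2 units, from 10619 to 65782 without and 12837 to 24161 with culture. Cox4i2 (-1.91), which was detected in 2 cells only, and Ndufa4l2 (-1.84) are described with the isoforms. The others on the lower side were Atp5a1 (-0.94), Ndufb2 (-0.82), Atp5d (-0.53), Uqcrq (-0.37) and Ndufs1 (-0.21).

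By complex, the median difference was 1.22 for complex III, 1.08 for complex II, 0.70 for complex I and 0.33 for complex V. For complex IV it was 0, with 8 genes higher and 8 lower. However, 8 of the 17 genes of complex IV were detected in 3 cells or fewer, against 0 in complexes III and V. Its median thus rests in part on genes near the floor. The enzymes around the pathway differed in both directions. Of 20 genes of the citric acid cycle and pyruvate entry, 10 were higher by at least 1 log2 unit and 1 lower (median 1.04). Of 18 glycolytic genes 3 were higher and 8 lower (median -0.92). The higher were Ldhb (3.35), Hk1 (1.83) and Slc2a3 (1.07), and the lower were led by Slc16a3, a lactate exporter (-3.97), Ldha, which makes lactate (-3.18), and Pfkl (-2.70). Depth moved with this comparison, with 1909 to 3513 genes detected per cell with no culture stated and 3049 to 3925 in culture, and its part in the result was not tested. Markers of other cell types also moved with it. Of 11 rod genes 0 were higher and 5 lower in culture, of 10 Müller glia genes 0 and 3, and of 7 progenitor and cell cycle genes 0 and 3. The summed signal of the rod list was 384 to 61388 with no culture stated and 1028 to 5962 in culture, that of the Müller glia list 5684 to 65768 and 688 to 24062, and that of the progenitor list 213 to 70238 and 899 to 8655. Of the 7 amacrine markers 3 were higher and 2 lower (median 0.86). Their part in the result was not tested.

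The second comparison asked how cells labelled by pSynapsin differ from those labelled by pNdrg4 in cultured retinas of the same age. At P5 the pathway was higher in the 4 pSynapsin cells than in the 5 pNdrg4 cells, by a median of 0.72, with 71 genes higher, 15 lower and 6 equal. By at least 1 log2 unit 30 were higher (32.6%) and 1 lower (1.09%). Over all genes the shares were 10.3% higher and 8.81% lower, and over those seen in 13 or more cells 24.2% and 18.2%, where the median was 0.18. The 70 members seen that often gave 35.7% and 1.43%, with a median of 0.80. In 11 genes every pSynapsin cell was above every pNdrg4 cell, and in 0 below, against 0.5% and 0.247% of all genes and 2.92% and 0.879% of genes detected in at least 13 cells. Complexes I, III and V gave 3 each, complex IV gave 1 and the assembly factors 1. After quantile normalization the 11 became 4.

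At P8, with 2 cells on each side, the median difference was 0.50. By at least 1 log2 unit 25 genes were higher with pSynapsin (27.2%) and 6 lower (6.52%), where all genes gave 13% and 12.8% and those seen in 13 or more cells 25.5% and 22.4%, where the median was 0.09. Without overlap 40 genes were higher and 5 lower, where all genes gave 5.35% and 5.18% and genes detected in at least 13 cells 19.9% and 15.6%. Of the 40, 15 belonged to complex I, 10 to complex V, 7 to complex IV and 5 to complex III, and the 5 lower were Ndufaf3, Ndufa9, Ndufv2, Atp5pb and Atp5b. Of the 70 members seen in 13 or more cells 32.9% were higher and 5.71% lower by at least 1 unit, with a median of 0.60. The ribosomal protein genes had a median difference of 0.14 at P5 and 0.62 at P8, and 25 of the 49 were higher without overlap at P8.

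The 2 reporter comparisons share no cell, so they can be set against each other. Of the 92 genes, 54 were higher with pSynapsin at both ages (58.7%), 8 lower at both and 21 opposite, while of genes detected in at least 13 cells 31.7% were higher at both and 23.1% lower at both (of all genes 12% and 11.6%). Of the 49 ribosomal protein genes 28 were higher at both (57.1%) and 4 lower, so the pathway was not alone in this. By complex, 21 of 34 subunits of complex I, 7 of 9 genes of complex III and 13 of 17 of complex V were higher at both. In complex IV 7 of 17 were, where 8 of the 17 were detected in 3 cells or fewer. By at least 1 log2 unit at both ages 9 were higher: Atp5d, Atp5mpl, Ndufa10, Ndufa2, Ndufa5, Ndufaf8, Ndufb2, Uqcr11 and Uqcrq. The background was 2.7% of all genes and 6.85% of those detected in at least 13 cells, and 8 of the 70 members seen that often were higher. None was lower by that much at both (2.25% of all genes and 4.67% of those detected in at least 13 cells). Without overlap at both ages 8 were higher, against 0.154% of all genes and 1.16% of those detected in at least 13 cells, and 0 were lower (0.044% of all genes). Of the ribosomal protein genes 5 of 49 were higher without overlap at both.

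**Figure D4:**
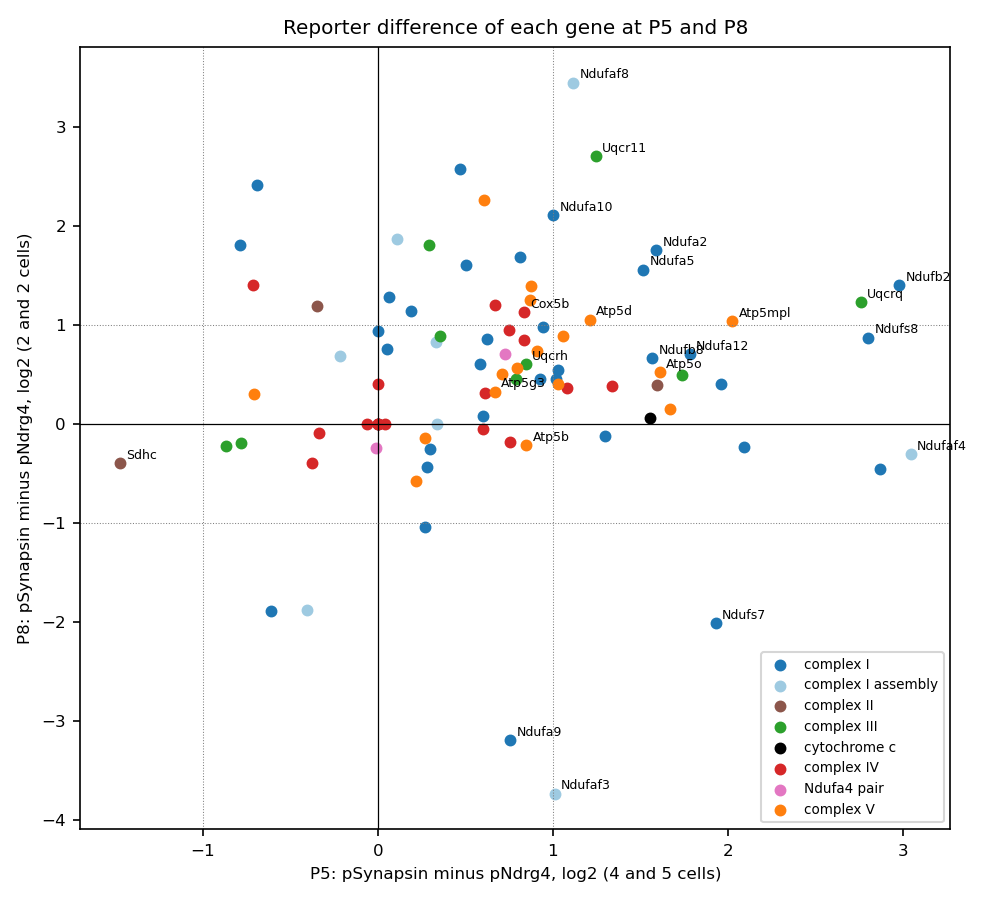
Difference of mean log2(max(signal, 200)), pSynapsin minus pNdrg4, of each of the 92 genes at P5 (horizontal axis, 4 and 5 cells) and P8 (vertical axis, 2 and 2 cells), coloured by complex; dotted lines mark 1 log2 unit. The upper right quadrant holds 54 genes and the lower left 8, and Uqcr11, Uqcrq, Ndufb2 and Ndufaf8 lie past 1 unit on both axes, while Ndufs7 and Ndufaf3 are high at P5 and low at P8.

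Of the 8 genes, 3 belong to complex III, and all 3 encode its small subunits. Uqcr11 had signals of 4999, 4107, 5349, 2825 and 2608 in the P5 pNdrg4 cells and 11104, 9235, 5788 and 11284 in the P5 pSynapsin cells, a difference of 1.25 log2 units or 2.37-fold. At P8 it had 3128 and 1223 with pNdrg4 and 13595 and 11944 with pSynapsin (2.70). Every pSynapsin cell of either age was thus above every cultured pNdrg4 cell of both. Uqcrq had 11840, 6168, 1918, 6818 and 212 with pNdrg4 and 22679, 15161, 32998 and 13058 with pSynapsin at P5 (2.76), and 9319 and 5930 against 20523 and 14815 at P8 (1.23). This rests on a probe set that may match several transcripts: without such probe sets Uqcrq was at the floor and its differences were 0. Uqcrh, the hinge protein next to cytochrome c1, had 12584, 22624, 10064, 11277 and 14727 against 23139, 24295, 25137 and 25740 at P5 (0.85). Its 4 pSynapsin cells were close together, with an SD of 0.07 log2 units, and at P8 it had 10172 and 15176 against 16630 and 21401 (0.60).

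Both complex I genes of this set encode accessory subunits. Ndufa12 had 9985, 7787, 1235, 5842 and 12569 with pNdrg4 and 18091, 15942, 36115 and 16089 with pSynapsin at P5 (1.78), and 8704 and 15899 against 20910 and 17515 at P8 (0.70), and it too had differences of 0 without probe sets that may match several transcripts. Ndufb8 had 13986, 6087, 12434, 932 and 15436 against 15925, 15453, 32277 and 21548 at P5 (1.57), and 14876 and 11535 against 27163 and 15935 at P8 (0.67). The gap of Ndufb8 at P5 was thin, with 15436 as the highest pNdrg4 cell and 15453 as the lowest pSynapsin cell.

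In complex IV, Cox5b, a subunit bound on the matrix side, had 8976, 23433, 12106, 18801 and 13171 with pNdrg4 and 25269, 23570, 29129 and 25373 with pSynapsin at P5 (0.83), and 8472 and 9090 against 16511 and 22251 at P8 (1.13). In complex V, Atp5o had 12451, 21300, 9917, 25377 and 4303 against 50485, 27965, 34709 and 41476 at P5 (1.61), and 25209 and 24155 against 38938 and 32170 at P8 (0.52). Atp5g3, the c-ring gene detected in the most cells of the 3, had 12292, 18036, 21490, 13078 and 20841 against 28287, 22418, 32795 and 23806 at P5 (0.67), and 18611 and 17385 against 22489 and 22585 at P8 (0.33), where quantile normalization gave -0.08. All cells of both comparisons had these 3 transcripts detected.

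Other wide differences at P5 came from cells near 0. Ndufaf4, an assembly factor, was at 1140, 33.8, 984, 204 and 21.95 with pNdrg4 and at 1498, 7285, 1474 and 6801 with pSynapsin, a difference of 3.05, but at P8 it was at 29.0 and 3374 against 56.0 and 2197. Ndufb2 (2.98), Ndufab1 (2.87), Ndufs8 (2.80), Ndufb11 (2.10), Atp5mpl (2.03), Ndufb5 (1.96) and Ndufs7 (1.93) were each below detection in 1 to 3 of the pNdrg4 cells. Ndufab1 is the acyl carrier protein of mitochondria as well as a subunit of complex I. On the lower side at P5 stood Sdhc (-1.47), Cyc1 (-0.87), Ndufs4 (-0.79), Uqcrc2 (-0.79), Cox7a2l (-0.71), Atp5c1 (-0.71), Ndufv1 (-0.69), Ndufs1 (-0.61) and Sdhb (-0.35). The difference of Sdhc rested on 1 pSynapsin cell, E4, at 93.6, with the other three at 5581, 2821 and 10052.

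At P8 the widest among genes found in 60% or more of the higher group's cells, the rule for all such lists here, were Ndufaf8 (3.45), Uqcr11 (2.70), Ndufa3 (2.57), Ndufv1 (2.41), Atp5k (2.26), Uqcrfs1 (1.81), Ndufs4 (1.81), Ndufa2 (1.75), Ndufv3 (1.69) and Ndufa1 (1.60). Ndufaf8 was at 56.1 and 339 with pNdrg4 and at 2192 and 3678 with pSynapsin. On the lower side stood Ndufaf3 (-3.73), Ndufa9 (-3.20), Ndufs7 (-2.01), Ndufs1 (-1.89), Ndufv2 (-1.04), Atp5pb (-0.58), Ndufab1 (-0.46), Ndufb3 (-0.44), Sdhc (-0.40) and Ndufc2 (-0.26). Ndufs7 and Ndufs1 were near 0 in the same pSynapsin cell, B4 (80.7 and 7.69), and without that cell both had the opposite sign (0.69 and 0.08). Uqcrfs1 was at 6809 and 369 with pNdrg4, and without the lower of these cells, A2, its difference was -0.29.

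Rod photoreceptor markers differed with the reporter at P5. Of 11, 7 were higher by at least 1 log2 unit in pSynapsin cells and 0 lower (median 1.88), and their summed signal was 1028 to 5962 in pNdrg4 cells and 7588 to 70436 in pSynapsin cells. The rod genes Gngt1 and Prph2 were undetected in every cell. Without cell E2, which had 7 of the rod markers, the median of the pathway at P5 was 0.77 and 34 genes were higher and 4 lower by at least 1 unit. The remaining pSynapsin cells had rod sums of 20625, 13884 and 7588, still above every P5 pNdrg4 cell. Leaving out E2 thus did not take away the rod difference. At P8 the rod list went the other way (median -0.52, 2 higher and 4 lower), with summed signals of 35873 and 47401 in pNdrg4 cells and 99562 and 8981 in pSynapsin cells. The part of rod transcripts in the reporter differences was not tested. The amacrine markers were lower in pSynapsin cells at P5 by a median of 1.27 log2 units, with summed signals of 17014 to 53299 against 23563 to 94077. Depth did not separate the groups, with 3049 to 3925 genes detected against 3291 to 3543 at P5. The separation of the pathway medians at P5 was lost under quantile normalization, by 13.24 for the highest pNdrg4 cell against 13.23 for the lowest pSynapsin cell, and at P8 under scaling to the 75th percentile (13.21 against 13.03).

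Genes next to the pathway were split in the reporter comparison. Of 18 glycolytic genes 0 were higher and 5 lower with pSynapsin at P5 (median -0.74), and 7 were higher and 0 lower at P8 (median 0.62). Of 26 mitochondrial ribosomal protein genes 10 were higher and 2 lower at P5 (median -0.08) and 12 and 4 at P8 (median 0.63). Of 18 genes of protein import into mitochondria 6 were higher and 3 lower at each age (medians 0.54 and 0.33). Of the 20 citric acid cycle genes, 6 were higher and 4 lower at P5 and 4 and 2 at P8. Slc25a4, a carrier that exchanges ADP for ATP across the inner membrane, was detected in all 26 cells, and differed by 0.56 at P5 and 0.02 at P8.

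The third comparison, between P8 and P5 cells of the same reporter, asked how levels differ with age and time in culture, which cannot be told apart here. It shares its P5 cells with the comparisons above and its P8 cells with the reporter comparison at P8. The pathway as a whole differed little. With pNdrg4 the median was 0.01, with 16 genes higher and 6 lower by at least 1 log2 unit at P8 (17.4% and 6.52%), against 13.5% and 9.6% of all genes and 25.8% and 20.4% of genes detected in at least 13 cells. With pSynapsin the median was 0.03, with 11 higher and 8 lower (12.0% and 8.70%), against 12.9% and 10.1%, and 23.3% and 20.5%. The ribosomal protein genes were lower at P8, by medians of 0.53 and 0.19. Without overlap 2 genes were higher and 5 lower with pNdrg4 (2.34% and 0.907% of all genes, 5% and 5.18% of those seen in 13 or more cells) and 5 higher and 6 lower with pSynapsin (2.57% and 1.32%, 5.74% and 6.57%).

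Ndufa10, an accessory subunit of complex I, was the widest difference with pNdrg4 and the next to widest with pSynapsin. It had 6873, 6990, 1597, 1978 and 2433 in P5 pNdrg4 cells and 86.2 and 10.8 in P8 pNdrg4 cells, both below the floor of 200, and 11547, 9348, 4541 and 3731 in P5 pSynapsin cells against 1222 and 606 at P8. The P8 cells were below all P5 cells of the same reporter in both, with differences of -4.03 and -2.93. A second gene of complex I, Ndufs7, had a difference of -3.76 with pSynapsin, also without overlap. The cell at 80.7 named above widened it, and without that cell the difference was -1.05. With pNdrg4 the others on the lower side were Ndufv1 (-2.84), Cox7a2l (-1.39), Atp5k (-1.39), Ndufs4 (-1.26), Ndufs5 (-0.97), Uqcr11 (-0.96), Cox5b (-0.72), Uqcrc2 (-0.67) and Uqcrb (-0.65). Without P8 pNdrg4 cell A1 the difference of Ndufs4 was 0.0042. With pSynapsin they were Ndufa9 (-2.47), Ndufaf4 (-2.29), Atp5e (-1.02), Ndufc1 (-0.94), Cox6b1 (-0.89), Ndufab1 (-0.83), Cycs (-0.66), Atp5pb (-0.65), and, without overlap, Cox5b (-0.43) and Uqcrh (-0.38). The value of Ndufaf4 changed sign with its other probe set, to 0.53 with the highest probe set of each cell and 0.56 with the median.

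Uqcrc1 was higher at P8 with both reporters, by 2.51 with pNdrg4 (1407, 23.98, 88.7, 8516 and 5697 at P5, 4531 and 10654 at P8) and by 1.27 with pSynapsin (8680, 9142, 8190 and 426 at P5, 9850 and 9768 at P8). Only the pSynapsin groups did not overlap, and without P5 cell E4, at 426, their difference in Uqcrc1 was 0.18. With pNdrg4 the others on the higher side were Ndufs8 (3.05), Ndufaf3 (2.92), Ndufab1 (2.50), Ndufb11 (2.28), Cox5a (2.12), Sdha (2.00), Ndufb5 (1.84), Ndufa9 (1.48), Ndufb10 (1.47) and, without overlap, Atp5b (0.66). With pSynapsin they were Ndufaf8 (2.71), Ndufb7 (1.83), Ndufa3 (1.64), Cyc1 (1.43), Uqcrfs1 (1.37), Ndufs4 (1.33), Sdhb (1.20), Cox5a (1.15), Ndufs8 (1.12) and, without overlap, Ndufv3 (0.78), Atp5c1 (0.72), Uqcr11 (0.49) and Cox6b2 (0.40). Cox6b2 did not reach detection in any of these cells. The value of Ndufs4 was -0.44 with the median of its probe sets, and that of Ndufs8 was -0.13 without P5 cell E4. Rod markers also differed with age, with medians of 3.02 and 1.07 and with 8 and 6 of 11 higher by at least 1 log2 unit, and their part in the result was not tested.

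The restricted isoforms of complex IV with links to oxygen stood out in single cells, and their group means were also lower in culture, as given above. Cox4i2 is the alternative form of Cox4i1, known from lung and from cells at low oxygen, and Ndufa4l2 is the relative of Ndufa4 that is induced when oxygen is low. Ndufa4, first counted with complex I and now with complex IV, was detected in all 26 cells (3913 to 30682). Cox4i2 was detected in only 2 cells, A6 at 44036 and A8 at 18891, both with no culture stated. In the other 24 cells it was at most 752. Cox4i1 was present in the same 2 cells, at 10619 and 65782, and the value in A6 was the lowest of the 10 cells with no culture stated.

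Ndufa4l2 was detected in 8 cells. With no culture stated it had 27218 in A8, 8276 in B4, 5760 in A6, 3238 in B2, 3174 in B1 and 3126 in B3, and 151 to 552 in the other four cells. In culture it had 5043 in P5 pNdrg4 cell C6 and 2804 in P5 pSynapsin cell E2, and 25.1 to 358 elsewhere. Both cells with Cox4i2 thus also had Ndufa4l2. Of a list of low-oxygen targets written after the values of Ndufa4l2 had been seen, 16 genes were measured, and 4 were higher (Pdk1 by 2.14, Ddit4, Mxi1 and Ankrd37) and 4 lower in culture (Slc16a3, Ndrg1 by 3.43, Ldha and Slc2a1), with a median of -0.24. Vegfa and Car9 of that list were undetected in every cell. Slc16a3 was detected in 7 cells, all with no culture stated. Of the 8 cells with Ndufa4l2, 5 had Slc16a3 and 3 did not, and 2 cells had Slc16a3 alone. Ldha lay between 14019 and 77659 in the 10 cells with no culture stated and between 94.7 and 19887 in the others. All 10 genes of a pericyte list, written after the values of Cox4i2 had been seen, were below the detection signal in all 26 cells.

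**Figure D5:**
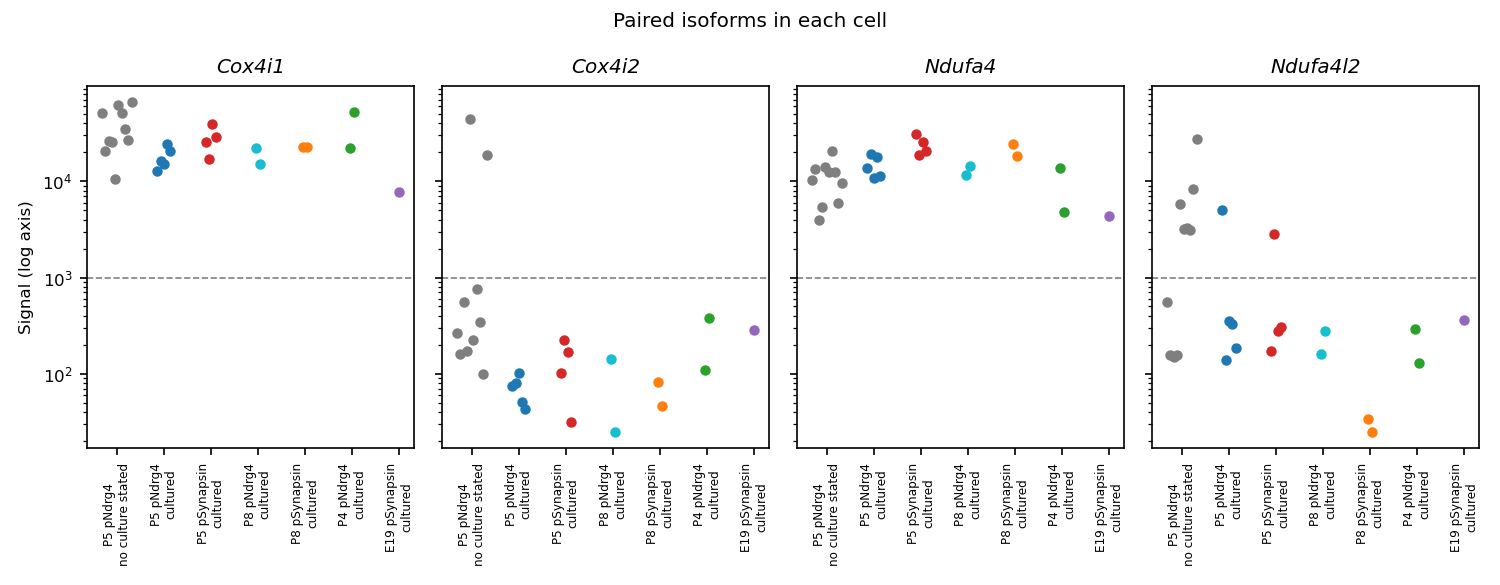
Signals (log axis) of Cox4i1, Cox4i2, Ndufa4 and Ndufa4l2 in each cell (1 point per cell) by group; the dashed line marks the detection signal of 1000. Cox4i1 and Ndufa4 lie above the line in all 26 cells, Cox4i2 in 2 and Ndufa4l2 in 8, of which 6 have no culture stated.

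Calls by different probe sets were compared for the 52 genes with more than 1. In 35 of them the next best probe set was also detected in at least 13 cells. These gave the same call as the probe set used in 21 to 26 cells (median 26), with a median correlation of 0.98 over the 26 cells (0.42 to 0.997). The lowest was that of Atp5a1. In the other 17 genes the next best probe set was detected in fewer cells, in 7 of them in 0, and the call was the same in 3 to 26 cells. It was the same in 13 cells or fewer for 8 of them, among them Atp5g2 (3 cells), Uqcr10, Uqcrq and Atp5g1 (4 each), Atp5c1 and Ndufb8 (6 each) and Ndufa10 (8). The levels of these genes rest on the brighter probe set. The other 40 genes, among them Atp5b, Uqcr11, Cox4i2, Ndufa4l2 and Ndufb4, rest on 1 probe set each.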

How the data were processed

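The 26 arrays were deposited as intensity values, linear signals; per the submitters' processing notes, MAS5 (version not stated) made them. The trimmed mean of every array was 500. Of 45101 probe sets, 34958 had 1 gene symbol, 932 several and 9211 none, and 34945 entered after control probe sets were dropped. A gene was read from its probe set of highest mean log2(max(signal, 200)), and 10 probe sets shared with other genes were left out. The chosen probe set of 19 members ends in _x_at or _s_at and may match several transcripts.

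Cells were grouped by reporter and age in the titles and by the culture time in the extraction text. Since each cell is 1 array and no animal or culture is named, no test across cells was made. A difference is that of group means of log2 values, counted from 1 log2 unit, and groups do not overlap when every cell of one is above every cell of the other. Genes named in a comparison were the 10 widest in each direction among those detected in at least 60% of the higher group, and those without overlap. The members and gene lists were chosen with earlier results of these data known, and the pericyte and low-oxygen lists were added after the values of Cox4i2 and Ndufa4l2 were seen. Alternatives were floors of 50 and 500, detection at 500 and 2000, other probe set rules, quantile normalization, scaling to the 75th percentile, group medians and leaving out each cell. No 2 arrays held identical values. Tables were made in Python 3.11.15 with pandas 2.3.3, numpy 2.4.6 and scipy 1.17.1, figures with matplotlib 3.10.9, and the scripts were tested on simulated data.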

Additional observations from a re-analysis of the deposited data

Results flagged for a closer look

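Single cells far from the rest of their group were found 18 times in 91 checks of groups of 4 to 10 cells, where chance gives about 1 in 20 for values that are independent and not clamped. These values share cells, and in Cox6b2, Cox7a1, Cox8b and, in P5 pSynapsin cells, Cox4i2 the other cells of the group lay at the floor of 200 (7.64), where any cell above it stands apart, so this rate does not apply to them. All values are on the log2 scale unless stated, with the nearest cell in parentheses. Among cells with no culture stated, these were the complex V median of B3 at 13.98 (13.45), Atp5g3 in A8 at 9.59 (12.80), Atp5o in B2 at 12.61 (14.47), Cox6b2 in A2 at 12.63 (7.64) and Cox7a1 in A2 at 8.51 (7.64).

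Among cultured P5 pNdrg4 cells, D6 was lowest in the median of all members at 12.03 (12.52) and of complex I at 11.60 (12.64). Atp5b in C1 was at 13.06 (13.79), Ndufa4l2 in C6 at 12.30 (8.45) and Ndufs7 in D5 at 7.64 (13.08).

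Among P5 pSynapsin cells, E4 had 66 members detected (72). E2 stood apart in the complex I median at 13.16 (13.35), Cox4i2 at 7.80 (7.64), Cox6b1 at 14.23 (14.78), Cox7a2 at 14.92 (15.53) and Ndufa4l2 at 11.45 (8.25). E3 stood apart in Cox8b at 8.02 (7.64) and Ndufa12 at 15.14 (14.14). E2 was also the P5 pSynapsin cell with the most rod markers, 7 of 11, and their part in this was not tested.

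Atp5b, the catalytic subunit of ATP synthase, was higher in every pSynapsin cell than in every pNdrg4 cell at P5 (difference 0.85) and lower in every one at P8 (-0.22). The difference between the ages was not tested, and the value at P8 was 0.02 after scaling to the 75th percentile.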

How the results depend on the processing

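Over the alternative settings, 160 summary values stayed within the spread between cells or, for counts, within 1.5 times, and 17 did not. Of the values of single genes 1110 stayed and 59 did not, and 3 differences of at least 1 log2 unit changed sign. Sign changes of smaller differences were not counted apart. Under quantile normalization 39 members were higher in culture instead of 29 and 9 lower instead of 5, with a median of 0.84 instead of 0.47, the reporter medians were 0.52 at P5 and 0.31 at P8, 3 members were lower at P5 instead of 1, and 25 were higher with age in pNdrg4 cells instead of 16. Scaling to the 75th percentile gave reporter medians of 0.94 and 0.71, and moved the median of genes detected in at least 13 cells from 0.18 to 0.42 at P5 and from 0.09 to 0.32 at P8. Group medians gave 19 members higher and 2 lower for the reporter at P5, and 8 and 5 higher with age in pNdrg4 and pSynapsin cells, and turned the share of higher calls with age from 72.7% to 47.1% and from 57.9% to 38.5%. A floor of 50 gave 2 members lower at P5 and 10 at P8. Detection at 500 put 14 members in all 26 cells and 3 in none, detection at 2000 put 5 in all, and the median over probe sets put 11 in none. With other probe sets, the age difference in pSynapsin cells was 0.53 and 0.56 for Ndufaf4 and -0.44 for Ndufs4.

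With 1 cell left out, the culture median ranged from 0.27 to 0.53, with 24 to 32 members higher and 5 to 8 lower (8 without C1). At P5 the reporter median ranged from 0.62 to 0.77, with 26 to 34 higher and 1 to 4 lower (4 without E1 or E2, 3 without D3, D6, E3 or E4, 2 without D5). At P8 it ranged from 0.44 to 0.63, with 20 to 30 higher and 4 to 8 lower. With age, 15 to 22 were higher and 6 to 10 lower in pNdrg4 cells (10 without D6), and 6 to 18 higher and 8 to 11 lower in pSynapsin cells (6 without E4, 18 without B3). Among differences of at least 1 log2 unit, the sign turned in the reporter comparison at P8 for Uqcrfs1 (-0.29 to 3.91 over the cells left out), Ndufs1 (-3.86 to 0.080) and Ndufs7 (-4.72 to 0.69). With age it turned for Ndufs4 in pNdrg4 cells (-2.52 to 0.0042) and Ndufs8 in pSynapsin cells (-0.13 to 1.77). Smaller differences of named genes also crossed 0 with 1 cell left out. In the culture comparison these were Atp5d, Ndufb2, Ndufs1 and Uqcrq. With the reporter they were Cox7a2l, Ndufs4 and Sdhb at P5, and Ndufab1, Ndufb3, Ndufc2 and Sdhc at P8. With age in pSynapsin cells it was Ndufab1. The cause was not tested. No paired analysis was possible because the cells carry no shared replicate numbers and no test was made. The signal at which a transcript counts as detected, and the few cells per group, limit all counts.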
